A study of Mus musculus with 6 samples.

Results

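The immediate early and dissociation stress genes are a list of 38 mouse genes, many of which cells switch on within minutes of a stimulus or an injury. Their signals were examined in islets of mTR-/-G4 and wild-type mice. The genes were chosen by name, and 37 of the 38 had a probe of their own among the 20204 genes that could be named on the array. Cyr61 and Ctgf were found under their current symbols Ccn1 and Ccn2, and Hspa1b had no probe of its own. In mTR-/-G4 islets 2 of the 37 genes, Dusp5 and Arc, were higher than in wild-type islets by limma at the threshold of the study, which asks for more than 1.5-fold and an unadjusted p under 0.05, and none was lower. Over all genes, 1.94% were higher and 1.64% lower, and no gene had an adjusted p under 0.05 from limma. Arc was not called by the methods' t-test. The larger contrast lay between samples of a single genotype. The highest of the 6 values was in the sample mTR-/-G4 a for 33 of the 37 genes, against 13.4% of all genes.

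The 6 samples were pancreatic islets purified by collagenase digestion from male C57BL/6 mice of 15 months, 3 samples of mTR-/-G4 mice and 3 of wild-type mice, named a, b and c within each genotype. mTR-/-G4 mice are null for the telomerase RNA in every cell and were bred for 4 generations without it, so that their telomeres are short, while wild-type mice carry the telomerase RNA. Total RNA of each sample was hybridized to 1 Affymetrix mouse exon array, and a sample was counted as 1 mouse. The study used the arrays to ask how the expression profile of islets with short telomeres differs from that of wild-type islets.

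Immediate early genes are transcribed from factors already present in the cell and need no new protein synthesis. Mitogen-activated kinases act on them through serum response factor, which binds the CArG box, and calcium and cyclic AMP act through CREB, which binds the cyclic AMP response element (CRE). Many of their products are transcription factors, others are phosphatases and mRNA decay factors that end the response, and most of the mRNAs are short-lived. In islets, glucose and membrane depolarization are known to induce Fos, Egr1 and Npas4, and enzymatic dissociation is known to induce many of these genes in solid tissues.

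The promoters of 5 genes that the results turn on are shown because they carry the elements through which the group is known to be induced. Sequences are from RefSeq, build GRCm38.p6, written 5′ to 3′ on the strand of the gene and ending at the base before the start site. Capitals mark the short CRE TGACG or its complement CGTCA, the full CRE, or the CArG box. They cover chr12:85473750-85473889 on the plus strand for Fos, chr7:19310046-19310185 on the minus strand for Fosb, chr19:4989972-4990161 on the minus strand for Npas4, chr17:26508473-26508672 on the minus strand for Dusp1 and chr19:53529025-53529144 on the plus strand for Dusp5.
Fos: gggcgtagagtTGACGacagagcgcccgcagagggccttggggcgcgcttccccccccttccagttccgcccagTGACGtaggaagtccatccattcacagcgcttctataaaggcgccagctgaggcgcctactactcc
Fosb: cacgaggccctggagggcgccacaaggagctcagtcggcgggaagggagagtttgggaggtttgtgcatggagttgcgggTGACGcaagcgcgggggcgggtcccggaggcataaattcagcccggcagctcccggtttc
Npas4: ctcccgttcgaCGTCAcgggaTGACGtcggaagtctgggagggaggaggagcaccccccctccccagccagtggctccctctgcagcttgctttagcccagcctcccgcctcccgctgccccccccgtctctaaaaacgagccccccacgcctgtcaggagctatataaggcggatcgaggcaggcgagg
Dusp1: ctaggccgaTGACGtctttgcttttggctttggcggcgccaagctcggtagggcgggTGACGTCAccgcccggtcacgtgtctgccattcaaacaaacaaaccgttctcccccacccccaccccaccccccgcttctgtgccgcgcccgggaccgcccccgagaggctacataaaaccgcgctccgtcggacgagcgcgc
Dusp5: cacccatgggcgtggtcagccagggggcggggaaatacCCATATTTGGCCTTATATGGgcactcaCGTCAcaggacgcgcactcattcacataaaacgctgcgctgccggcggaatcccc

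Counted from the start site, Fos carried a short CRE at -129 and another at -66, Fosb had its short CRE at -60, and Dusp1 had a full CRE at -143. In Dusp5 a pair of CArG boxes that abut each other began at -82, with a short CRE at -55. Over 300-base windows, 250 bases before to 50 after a start, the short CRE TGACG was found on either strand for 20 of 31 listed genes with a window (64.5%), against 23% of the 27025 genes in the table. The full CRE TGACGTCA, which holds a short CRE on each strand, was found for 3 of the 31 genes, Btg2, Dusp1 and Maff (9.68%, against 2.03% of all genes). The CArG box was also found for 3, Dusp5, Egr2 and Zfp36 (9.68%, against 1.81%). The AP-1 element TGACTCA was found for none (against 5.95% of all genes), the Egr element GCGTGGGCG for Maff alone (0.707% of all genes), and the heat shock element, GAANNTTCNNGAA or TTCNNGAANNTTC, for Hsph1 alone (0.662%). TATAAA was present for 5 genes (16.1%, against 15.7%). All motifs were searched on both strands, and base composition was not matched between the genes and the rest. Arc, Ctgf, Egr1, Egr3, Fosl1, Ier2 and Myc had no window.

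The islet identity of the samples was checked on 11 markers of beta cells, whose mean log2 signal was 10.92, 10.88 and 11.01 in mTR-/-G4 a, b and c and 11.02, 11.26 and 11.17 in wild-type a, b and c, and none of them passed the threshold. The probe of the telomerase RNA gene Terc also carries the symbol of another gene, and the loss of Terc was therefore left unchecked. The array of mTR-/-G4 b stood apart with an interquartile range of 2.05 log2 units, against 2.56 on mTR-/-G4 a and 2.42 to 2.79 on all other arrays. Correlations over all probes ran from 0.951 to 0.989 between arrays, and the lowest involved mTR-/-G4 b. With 3 arrays per genotype, the number of arrays limits the precision of every value.

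Across the 37 genes, the median of log2 signal minus the wild-type mean was 1.08 in mTR-/-G4 a, 0.16 in mTR-/-G4 b and -0.15 in mTR-/-G4 c. It was 0.17 in wild-type a, -0.07 in wild-type b and -0.14 in wild-type c. The sample mTR-/-G4 a therefore stood alone, and mTR-/-G4 b and c lay near the wild-type samples. Of all genes, 13.4% had their highest value in mTR-/-G4 a, against 33 of the 37 (89.2%). The signal in mTR-/-G4 a was more than 1.5-fold above each of the other 5 samples for 20 of the 37 genes (54.1%) and for 0.836% of all genes. The exceptions to the highest value in mTR-/-G4 a were Dusp2, Myc, Ier5 and Ctgf. Within wild-type mice, the sample wild-type a was the highest of its genotype for 29 of the 37 genes (78.4%), against 32.6% of all genes.

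**Figure D1:**
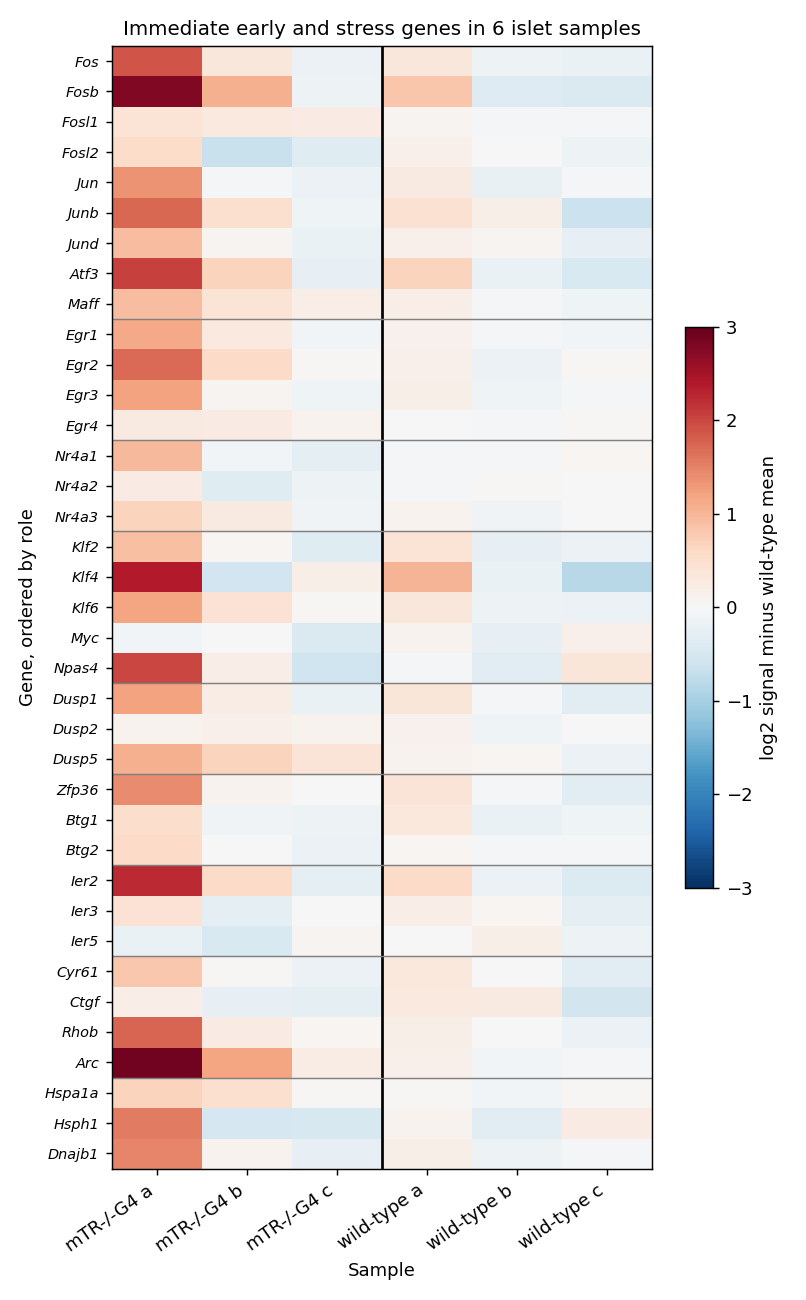
Each row is a gene, ordered by role, each column is a sample, and the colour is the log2 signal minus the mean of the 3 wild-type samples. The column of mTR-/-G4 a is the darkest for most genes and holds the highest value of 33 of the 37, whereas mTR-/-G4 c is close to the wild-type columns.

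The spread within mTR-/-G4 exceeded that within wild-type. The median SD of the 37 genes was 0.639 log2 units in mTR-/-G4 and 0.215 in wild-type samples, against 0.158 in mTR-/-G4 and 0.108 in wild-type samples over all genes. For 35 of the 37 genes the SD was larger in mTR-/-G4, as it was for 66.1% of all genes. A range over 1 log2 unit was seen for 22 genes within mTR-/-G4 and for 4 within wild-type, namely Fosb, Junb, Atf3 and Klf4. In mTR-/-G4 a the value lay above the wild-type range for 33 of the 37 genes, against 39.9% of all genes. In mTR-/-G4 b it lay inside that range for 15 genes, against 19.5% of all genes, and above it for 16, against 48.9%. In mTR-/-G4 c it lay inside for 23 genes, against 32.8% of all genes, and above for 4, against 45.9%.

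The genotypes were compared against this spread. By limma, 2 of the 37 genes were called higher in mTR-/-G4 (5.41%), against 1.94% of all genes, and 0 were called lower, against 1.64% of all genes. By the methods' t-test 1 was called higher (Dusp5), against 1.12% of all genes, and 0 lower, against 1.26%. With arrays centred on their medians, 1.09% of all genes were called higher and 2.84% lower. An unadjusted p under 0.05 from limma was given to 4 of the 37 (10.8%), Fosl1, Maff, Dusp5 and Arc, against 22.1% of all genes, and no gene on the array had an adjusted p under 0.05 from limma. For 4 genes, Fosl1, Egr4, Dusp5 and Arc, all mTR-/-G4 values lay above all wild-type values (10.8%, against 25.0% of all genes), and 0 lay wholly below, against 12.2% of all genes. Both shares lay below those of the whole array, a difference that was not tested and in which brightness was not matched. The share of all genes without overlap in either direction was 37.2%, and 25.8% with quantile normalization again. The median log2 fold change was 0.39 over the 37 genes and 0.10 over all genes. Of the 37, 32 were above 0 (86.5%), against 63.4% of all genes. Without mTR-/-G4 a the median was 0.01, against 0.10 over all genes. In that setting 19 of the 37 were above 0 (51.4%), against 61.1% of all genes. The surplus of positive differences was not seen without that sample. The median was 0.53 without mTR-/-G4 b and 0.65 without mTR-/-G4 c. At the threshold, 1 gene (Arc) was called without mTR-/-G4 a, against 3.95% of all genes. It was 1 gene (Dusp5) without mTR-/-G4 b, against 1.32% of all genes, and 12 genes without mTR-/-G4 c, against 2.53% of all genes.

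**Figure D2:**
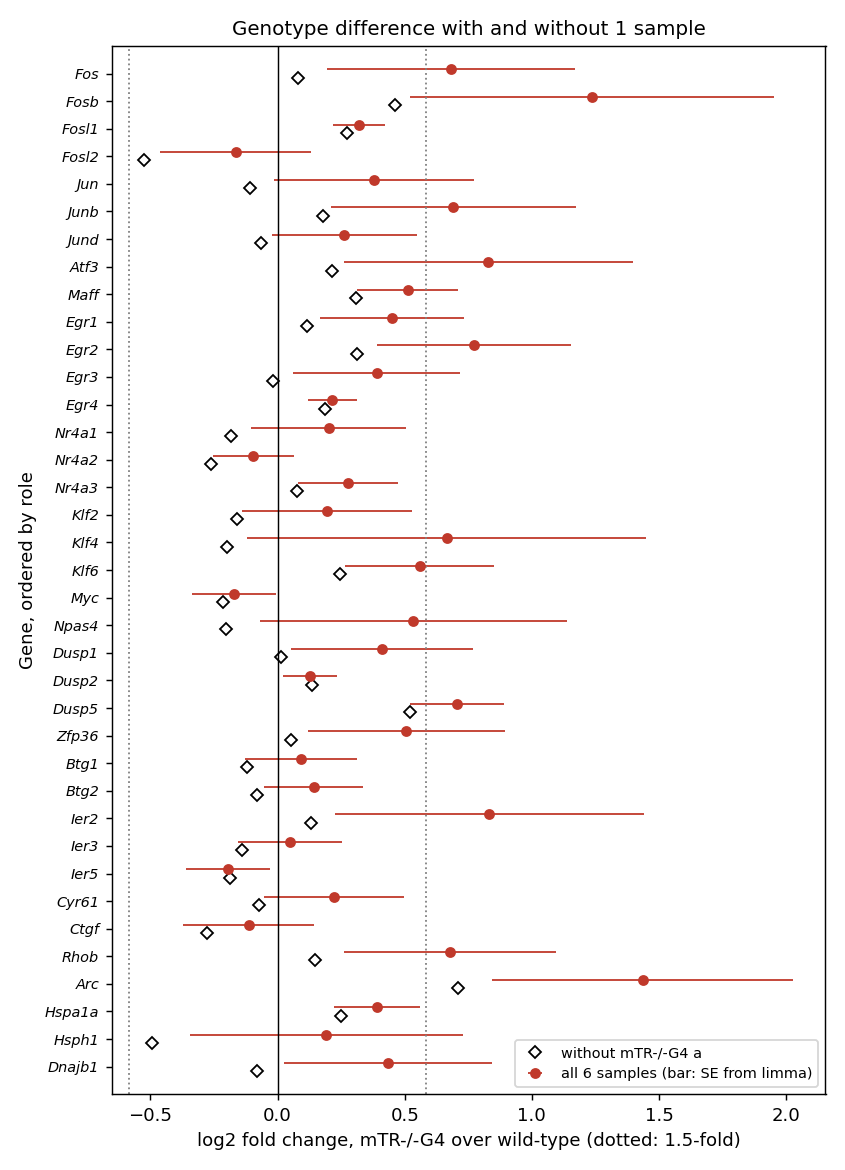
Points give the log2 fold change of mTR-/-G4 over wild-type for each gene with all 6 samples (filled, bar: standard error from limma) and without mTR-/-G4 a (open), and dotted lines mark 1.5-fold. Most open points lie left of the filled ones and near 0, while Arc stays right of the dotted line.

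Dusp5 and Arc were the genes that passed. Dusp5 is a nuclear phosphatase that is induced by ERK and dephosphorylates it. Its log2 signal was 9.07, 8.65 and 8.38 in mTR-/-G4 a, b and c, against 8.11, 8.05 and 7.83 in wild-type a, b and c. Each mTR-/-G4 sample was above each wild-type sample, and the rise was 0.71 on the log2 scale (SE 0.19, adjusted p = 0.137 from limma). Without mTR-/-G4 a the difference was 0.52, below 1.5-fold, and with acinar markers as a covariate it was -0.018 (SE 0.30). All mTR-/-G4 samples lie above all wild-type samples on that covariate, so it can hardly be told apart from genotype. Dusp5 has other probes of its own, and they differed. On a dimmer probe the rise was 1.011 (SE 0.23), without overlap between genotypes. A probe nearly as bright as the first had a difference of 0.39 (SE 0.28) that did not pass. It was at 9.01, 7.98 and 7.97 in mTR-/-G4 a, b and c and at 8.01, 8.04 and 7.75 in wild-type a, b and c. On that probe mTR-/-G4 b and c lay inside the wild-type range, so the separation of genotypes depended on the probe.

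Arc is a cytoskeleton-associated protein of neurons whose mRNA is induced by synaptic activity. It was at 8.97, 7.27 and 6.31 in mTR-/-G4 a, b and c, against 6.23, 6.00 and 6.01 in wild-type a, b and c. The wild-type samples lay close together and the mTR-/-G4 samples were spread over 2.66 log2 units, with the lowest just above wild-type a. The mean was 7.52 ± 1.35 in mTR-/-G4 and 6.08 ± 0.13 in wild-type islets (SD, n = 3 each), a rise of 1.44 (SE 0.59, adjusted p = 0.211 from limma). The call was lost without mTR-/-G4 b (difference 1.56) and without each of the wild-type samples in turn (1.40 to 1.51), and was kept without mTR-/-G4 a (0.71, adjusted p = 0.147 from limma). It was also lost with the methods' t-test, with arrays centred on their medians and with brighter probes alone. With acinar markers as a covariate, which can hardly be told apart from genotype here, the difference was -0.90 (SE 0.90) and not called.

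The AP-1 subunits are bZIP transcription factors that bind DNA as dimers of Fos, Jun and Atf proteins, and all 9 had their highest value in mTR-/-G4 a. Fos was at 11.10, 9.55 and 9.03 in mTR-/-G4 a, b and c and at 9.54, 9.07 and 9.02 in wild-type a, b and c. Fosb, a second Fos protein that follows neuronal and hormonal stimulation, was at 12.25, 10.54 and 9.31 in mTR-/-G4 a, b and c and at 10.30, 9.07 and 9.02 in wild-type a, b and c. In both genes mTR-/-G4 a stood above all other samples, while mTR-/-G4 b lay near wild-type a and the genotypes overlapped. The difference was 0.68 (SE 0.49) for Fos and 1.24 (SE 0.72) for Fosb, neither past the threshold, and it was 0.08 and 0.46 without mTR-/-G4 a. Jun, the main partner of Fos, was at 11.51, 10.11 and 9.99 in mTR-/-G4 samples and at 10.43, 9.94 and 10.10 in wild-type samples. Junb, which restrains Jun, was at 8.11, 6.87 and 6.28 in mTR-/-G4 samples and at 6.85, 6.57 and 5.76 in wild-type samples. Jund, the most constitutive Jun protein, was at 8.25, 7.40 and 7.13 in mTR-/-G4 samples and at 7.48, 7.42 and 7.09 in wild-type samples. In the 3 Jun genes mTR-/-G4 b and c fell inside or at the edge of the wild-type range.

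Atf3, a stress-induced repressor of the same family, was at 9.15, 7.76 and 6.85 in mTR-/-G4 a, b and c and at 7.75, 6.89 and 6.63 in wild-type a, b and c. As with Fos, mTR-/-G4 b and wild-type a were almost equal, and the difference of 0.83 (SE 0.57) did not pass. Fosl2, a Fos protein of slower kinetics, was at 6.78, 5.55 and 5.86 in mTR-/-G4 samples and at 6.38, 6.23 and 6.07 in wild-type samples. Here mTR-/-G4 b and c lay below all wild-type samples and mTR-/-G4 a above them, with a difference of -0.17 (SE 0.30), which was -0.52 without mTR-/-G4 a. Fosl1, a Fos protein that is itself a target of AP-1, was dim, at 4.46 ± 0.090 in mTR-/-G4 and 4.14 ± 0.068 in wild-type islets (SD, n = 3 each), and did not overlap, but its difference of 0.32 was under 1.5-fold. That difference was 0.08 (SE 0.12) with quantile normalization again and 0.22 (SE 0.10) with arrays centred on their medians, so its size depended on normalization. Maff, a small Maf protein without an activation domain, averaged 5.14 ± 0.37 in mTR-/-G4 and 4.63 ± 0.18 in wild-type islets (SD, n = 3 each), a difference of 0.51 (SE 0.20, adjusted p = 0.202 from limma) that was also under 1.5-fold.

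Egr factors are zinc finger activators downstream of ERK. Egr1 was at 9.20, 8.38 and 8.01 in mTR-/-G4 a, b and c and at 8.21, 8.04 and 7.99 in wild-type a, b and c. Egr2 was at 6.52, 5.40 and 4.86 in mTR-/-G4 samples and at 4.96, 4.65 and 4.84 in wild-type samples. Egr3 was at 5.62, 4.50 and 4.29 in mTR-/-G4 samples and at 4.58, 4.29 and 4.37 in wild-type samples. In each of these, mTR-/-G4 a was the highest and mTR-/-G4 c lay within the wild-type range, and the differences of 0.45 (SE 0.28), 0.77 (SE 0.38) and 0.39 (SE 0.33) did not pass. Egr4 was dim, at 4.19 to 4.35 in mTR-/-G4 and 4.03 to 4.10 in wild-type samples, with no overlap and a difference of 0.22. With quantile normalization again the difference was -0.018. On another probe of Egr4 the genotypes overlapped, at 4.34, 4.35 and 3.996 in mTR-/-G4 a, b and c and 4.09, 3.96 and 3.91 in wild-type a, b and c. The separation of Egr4 therefore depended on the probe.

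The Nr4a genes encode orphan nuclear receptors that act without a known ligand. Nr4a1 was at 9.002, 7.94 and 7.76 in mTR-/-G4 a, b and c and at 8.01, 8.01 and 8.08 in wild-type a, b and c. The wild-type samples were nearly level, with mTR-/-G4 a above and the other 2 mTR-/-G4 samples below them, and the difference was 0.20 (SE 0.31). Nr4a3 (4.80 to 5.58 in mTR-/-G4, 4.80 to 5.01 in wild-type) and Nr4a2 (7.26 to 7.86 in mTR-/-G4, 7.58 to 7.65 in wild-type) did not pass.

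**Figure D3:**
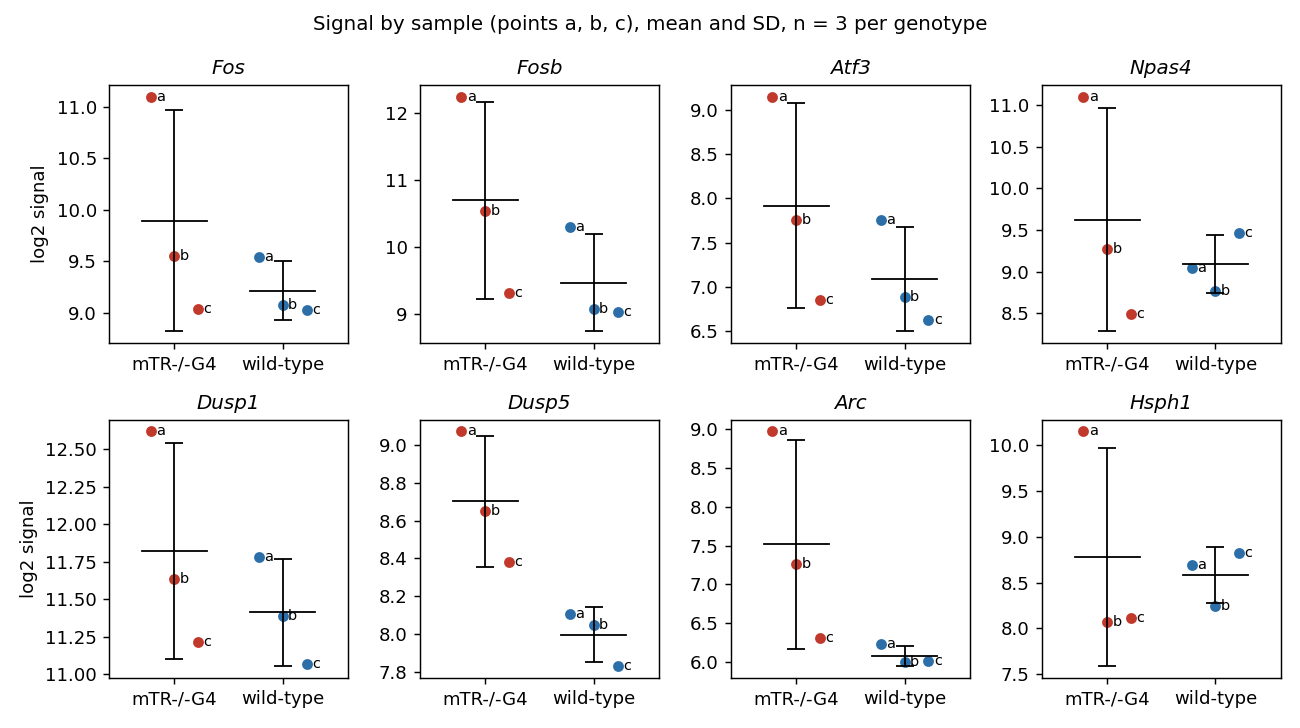
Log2 signal of 8 genes in each sample, with mTR-/-G4 left and wild-type right, a point per sample marked a, b or c, the line at the mean and the bar at the SD (n = 3 per genotype). Axes differ between panels and do not start at 0. Each gene is drawn from its brightest probe. The point of mTR-/-G4 a is the highest in each panel, and the genotypes are apart in the panels of Dusp5 and Arc.

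The remaining transcription factors included the widest values of the list. Klf4, a zinc finger factor of differentiation and pluripotency, was at 10.17, 7.21 and 7.96 in mTR-/-G4 a, b and c and at 8.80, 7.58 and 6.96 in wild-type a, b and c. On this probe the signal in mTR-/-G4 a was 6.01-fold that of the mean of mTR-/-G4 b and c. It was the largest such ratio among the brightest probes of the 37 genes, and wild-type a was the highest of its genotype. The size differed between Klf4 probes: 1 was at 8.22, 4.305 and 5.28 and another at 7.22, 6.52 and 6.06 in mTR-/-G4 a, b and c. The difference of 0.67 (SE 0.78) did not pass. The other 4 probes of Klf4 were highest in mTR-/-G4 a as well, but their differences ran from -0.82 to 0.63, so no direction between genotypes can be given for Klf4. Npas4, a factor induced by calcium after depolarization in neurons and beta cells, was at 11.10, 9.28 and 8.49 in mTR-/-G4 a, b and c and at 9.04, 8.76 and 9.46 in wild-type a, b and c. Here mTR-/-G4 c was the lowest of the 6 samples and the difference was 0.53 (SE 0.60).

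Klf2, a factor best known from endothelium, was at 6.996, 6.14 and 5.72 in mTR-/-G4 samples and at 6.51, 5.85 and 5.91 in wild-type samples. Klf6, a ubiquitous Klf factor, was at 7.12, 6.38 and 5.98 in mTR-/-G4 samples and at 6.27, 5.77 and 5.76 in wild-type samples. In Klf2 and in Klf6 the genotypes overlapped. Myc, the growth regulator, departed from the pattern: it was highest in wild-type c, and it averaged 6.11 ± 0.23 in mTR-/-G4 and 6.28 ± 0.22 in wild-type islets (SD, n = 3 each).

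The genes that end the response behaved alike for the most part. Dusp1, the phosphatase of p38 and JNK and a bright gene of the list, was at 12.62, 11.64 and 11.22 in mTR-/-G4 a, b and c and at 11.78, 11.39 and 11.07 in wild-type a, b and c. Zfp36, which binds AU-rich elements and speeds mRNA decay, was at 9.64, 8.34 and 8.21 in mTR-/-G4 samples and at 8.61, 8.20 and 7.88 in wild-type samples. Both were highest in mTR-/-G4 a and overlapped between genotypes, with differences of 0.41 (SE 0.36) and 0.51 (SE 0.39). Dusp2, another nuclear MAP kinase phosphatase, was dim and flat at 4.10 to 4.16 in mTR-/-G4 and 3.86 to 4.12 in wild-type samples. The antiproliferative genes Btg1 (8.23 to 8.90 in mTR-/-G4, 8.18 to 8.70 in wild-type) and Btg2 (11.67 to 12.43 in mTR-/-G4, 11.81 to 11.91 in wild-type) differed by 0.09 and 0.14 and did not pass.

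Ier2, a nuclear protein of the growth factor response, was at 8.31, 6.64 and 5.77 in mTR-/-G4 a, b and c and at 6.65, 5.90 and 5.67 in wild-type a, b and c. Its signal in mTR-/-G4 a was 4.30-fold that of mTR-/-G4 b and c, and mTR-/-G4 b was level with wild-type a. Ier3, a survival gene of NF-kB (5.80 to 6.49 in mTR-/-G4, 5.80 to 6.26 in wild-type), and Ier5 (5.58 to 6.13 in mTR-/-G4, 5.88 to 6.203 in wild-type), a gene of the heat shock response, had differences of 0.05 and -0.19. Rhob, a short-lived small GTPase of endosomes, was at 9.72, 8.22 and 8.03 in mTR-/-G4 a, b and c and at 8.16, 7.97 and 7.80 in wild-type a, b and c. Apart from mTR-/-G4 a its samples lay within 0.5 log2 units of each other, and the difference of 0.68 (SE 0.42) did not pass. The matricellular genes of the YAP response were nearer between genotypes: Cyr61 averaged 6.91 ± 0.52 in mTR-/-G4 and 6.69 ± 0.31 in wild-type islets, and Ctgf 6.91 ± 0.28 in mTR-/-G4 and 7.03 ± 0.48 in wild-type islets (SD, n = 3 each).

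The heat shock proteins of the list showed the same sample. Hsph1, a nucleotide exchange factor of Hsp70, was at 10.15, 8.07 and 8.11 in mTR-/-G4 a, b and c and at 8.69, 8.24 and 8.83 in wild-type a, b and c. Here mTR-/-G4 b and c lay below all wild-type samples, so the difference of 0.19 (SE 0.54) was -0.50 without mTR-/-G4 a. Dnajb1, an Hsp40 co-chaperone, was at 10.15, 8.78 and 8.43 in mTR-/-G4 samples and at 8.87, 8.53 and 8.65 in wild-type samples. Hspa1a, the inducible Hsp70 whose sequence is nearly identical to that of Hspa1b, so that its probe may read both, was at 9.999, 9.80 and 9.36 in mTR-/-G4 samples and at 9.37, 9.26 and 9.37 in wild-type samples. Hspa1a differed by 0.39 (SE 0.17, adjusted p = 0.221 from limma), under 1.5-fold, and mTR-/-G4 c was level with wild-type a and c.

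Other genes of the pathway were counted from lists chosen by function. Over all genes, 1.94% rose and 1.64% fell in mTR-/-G4. Of all genes, 13.4% were highest in mTR-/-G4 a, and 0.836% were there more than 1.5-fold above each of the other samples. Of 50 other early response genes, 5 rose and 0 fell in mTR-/-G4, 37 were highest in mTR-/-G4 a, and 12 were there more than 1.5-fold above each of the other samples. The largest rises were those of Gem, a small GTPase that inhibits calcium channels (0.97, SE 0.28), Trib1, a pseudokinase (0.84, SE 0.29), Cebpd, a bZIP factor of the acute phase (0.79, SE 0.33), and Gadd45b, a stress sensor upstream of p38 (0.64, SE 0.18). Gem averaged 7.76 ± 0.60 in mTR-/-G4 and 6.79 ± 0.15 in wild-type islets (SD, n = 3 each) and did not overlap between genotypes. Without mTR-/-G4 a, 1 of the 50 was higher, Gem at 0.64, and 3 were lower, Hbegf, Plk2 and Zfp36l1. Over all genes, 3.95% were higher and 2.66% lower in that setting. The median difference of these 50 genes was 0.19, and -0.01 without mTR-/-G4 a.

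Upstream factors and kinases were counted in the same way. Of 30 genes of the ERK, JNK, p38, SRF and CREB pathways, 0 rose and 0 fell, 5 were highest in mTR-/-G4 a, and the median difference was -0.04. In 2 of the 30 all mTR-/-G4 values lay above all wild-type values, against 25.0% of all genes. In 7 they lay below, against 12.2% of all genes, and these differences were not tested. Srf, the serum response factor itself, had the pattern of the early genes, at 8.22, 6.89 and 7.09 in mTR-/-G4 a, b and c and at 7.20, 7.22 and 6.90 in wild-type a, b and c. Of 14 feedback inhibitors and of 17 bZIP partners and repressors, 5 each were highest in mTR-/-G4 a and 0 passed in either direction, with medians of 0.06 and 0.08. Of 26 other heat shock genes, 21 were highest in mTR-/-G4 a, 5 of them more than 1.5-fold above each other sample, and 0 passed between genotypes. Hsp90aa1, the inducible cytosolic Hsp90, was at 13.51, 12.21 and 12.49 in mTR-/-G4 a, b and c and at 12.75, 12.79 and 12.89 in wild-type a, b and c. Among 12 housekeeping genes 5 were highest in mTR-/-G4 a, and their median deviation from the wild-type mean there was 0.18.

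Markers of other cells were set beside these values. Over all genes, 1.94% rose and 1.64% fell in mTR-/-G4. Of 19 measured acinar markers, the digestive enzymes and factors of the exocrine cells around islets, 17 rose in mTR-/-G4 and 1 fell (Bhlha15). Their mean log2 signal was 10.01, 9.42 and 9.03 in mTR-/-G4 a, b and c and 8.47, 7.66 and 7.56 in wild-type a, b and c. Acinar markers were thus highest in mTR-/-G4 a among the mTR-/-G4 samples and in wild-type a among the wild-type samples, the samples in which most of the early genes were highest. Their part in the values of the early genes was not tested. Cel, a bile salt-activated lipase and the brightest acinar marker, averaged 12.42 ± 0.39 in mTR-/-G4 and 10.75 ± 0.58 in wild-type islets, and Cpa1, a carboxypeptidase, 12.01 ± 0.23 in mTR-/-G4 and 10.94 ± 0.38 in wild-type islets (SD, n = 3 each). In bulk samples, fewer cells of a type and less RNA per cell cannot be told apart.

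The acinar order of samples within each genotype was shared by the means of duct, leukocyte, and fibroblast and stellate markers, so it was not particular to exocrine markers. Of these lists, only duct markers were highest in mTR-/-G4 a. Duct markers averaged 6.98, 6.51 and 6.47 in mTR-/-G4 a, b and c and 6.65, 6.35 and 6.04 in wild-type a, b and c, and 2 of 12 rose (Tff2 and Muc1). Leukocyte markers averaged 6.19, 6.14 and 6.09 in mTR-/-G4 a, b and c and 6.57, 5.87 and 5.78 in wild-type a, b and c, and 0 of 16 passed. Endothelial markers averaged 7.20, 6.89 and 6.90 in mTR-/-G4 a, b and c and 7.67, 7.35 and 7.06 in wild-type a, b and c, and 3 of 14 fell (Flt1, Kdr and Tek). Fibroblast and stellate markers averaged 6.23, 5.97 and 5.79 in mTR-/-G4 a, b and c and 6.34, 6.165 and 5.597 in wild-type a, b and c, and 1 of 14 fell (Rgs5). Leukocyte, endothelial, and fibroblast and stellate markers were highest in wild-type a. The 9 markers of Schwann cells and neurons averaged 5.75 to 6.07 in mTR-/-G4 and 5.57 to 6.11 in wild-type samples, and the 8 markers of alpha, delta and PP cells averaged 9.14 to 9.29 in mTR-/-G4 and 8.98 to 9.24 in wild-type samples. None of the markers in these last lists passed.

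**Figure D4:**
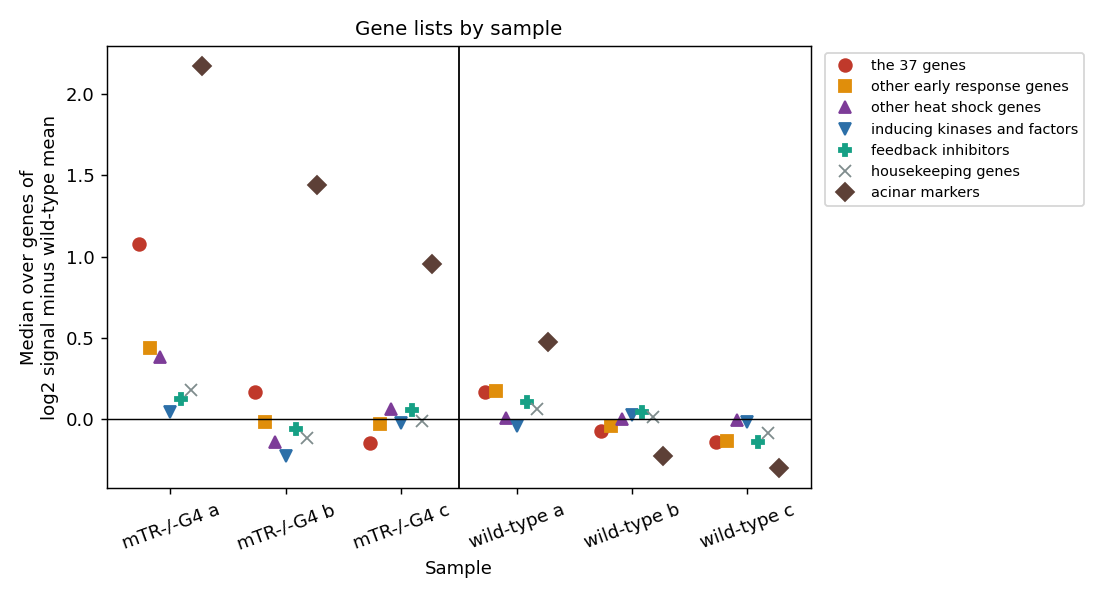
For each gene list, the median over its genes of log2 signal minus the wild-type mean is plotted for each sample, the mTR-/-G4 samples left of the line and the wild-type samples right of it. The 37 genes stand at 1.08 in mTR-/-G4 a and near 0 elsewhere, other early response genes at 0.44 and other heat shock genes at 0.38 in that sample, and acinar markers at 2.17, 1.44 and 0.96 in the 3 mTR-/-G4 samples.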

How the data were processed

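The authors normalized the 6 arrays together by Robust Multichip Analysis in Partek (version not given in the sources used here). They deposited the log2 signal of 34502 transcript clusters, termed probes. The build mm9 is named in the submitters' processing notes, but its coordinates were not used. These values were used as deposited, with no filter on dim probes. By the platform annotation 25362 probes have 1 gene symbol, 2238 several and 6902 none. Probes listed for that gene alone gave a gene its values, and the brightest of them was used. Lists were matched by symbol, then by older symbol.

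Genotypes were compared with limma 3.58.1 (lmFit, eBayes) in R 4.3.3 over all probes. The threshold was a fold above 1.5 and an unadjusted p under 0.05, with Benjamini-Hochberg adjustment over all probes beside it. The script was tested on simulated data. All 37 measured genes are named, with values per sample for those called, those with a range over 1 log2 unit within a genotype, and Fos, Jun, Egr1, Atf3, Nr4a1 and Hspa1a. From other lists at most 4 called genes are named with values; Srf, Hsp90aa1, Hbegf, Plk2, Zfp36l1 and the markers named in parentheses were chosen after their values were seen. For markers other than acinar ones, list means are given. The genes and lists were chosen with earlier results of these data known. Promoters were read from a RefSeq table. That the samples are separate mice comes from the study's count of mice, not from the labels. The authors' RT-PCR and tissue experiments were not analysed here.

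The alternatives tried were the methods' t-test, a repeat of quantile normalization, centring on array medians, brighter probes alone, the mean of a gene's probes, a 2-fold threshold, a trended and robust prior, a replicate block, the mean of acinar markers as a covariate, and each sample left out in turn.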

Additional observations from a re-analysis of the deposited data

How the results depend on the processing

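Of the 37 genes, 2 were called higher and 0 lower. The count called higher was 1 with the methods' t-test (1.12% of all genes), with arrays centred on their medians (1.09%), with brighter probes alone (1.63%) and at a 2-fold threshold (0.386%), and 1 to 12 with each sample left out in turn (1.32% to 3.95%). The t-test, centring and brighter probes lost Arc, and the 2-fold threshold lost Dusp5. Centring moved the median difference of all genes to 0.001, against 0.10. The count of genes whose genotypes did not overlap was 4 (37.2% of all genes in either direction), and 2 of 31 with brighter probes alone (31.4%). It was 3 with quantile normalization again (25.8%), 3 with centring (29.2%) and 3 with the mean of a gene's probes (36.8%). With a sample left out it was 4 to 16: 8 without mTR-/-G4 a (55.5%), 16 without mTR-/-G4 c (45.6%) and 11 without wild-type a (49.0%). Without mTR-/-G4 c, Fos, Fosb, Junb, Atf3, Maff, Egr1, Egr2, Klf6, Ier2 and Rhob were added to the calls, and without wild-type a Maff was called and Arc was not. The median difference with a sample left out was 0.01 (without mTR-/-G4 a) to 0.65 (without mTR-/-G4 c). Signs of genes not called changed for 13 of the 37 without mTR-/-G4 a, 4 with quantile normalization again and 2 with centring.

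With the mean of acinar markers as a covariate, 0 genes were called higher (1.98% of all genes) and 11 lower (2.68%), and the median difference was -0.90 (0.081 over all genes). The sign turned for Fosb (-2.27), Junb (-1.49), Atf3 (-1.94), Klf2 (-1.41), Klf4 (-2.73), Klf6 (-0.82), Dusp1 (-1.26), Zfp36 (-1.23), Btg1 (-0.90), Ier2 (-2.03) and Cyr61 (-1.03), which were called lower. It also turned for Dusp5 (-0.018) and Arc (-0.90), which were not called. Among genes called in neither fit, the sign changed for 17 more, Fos (-1.46), Jun (-1.26) and Egr1 (-0.70) included. All mTR-/-G4 samples lie above all wild-type samples on this covariate, so the covariate and genotype can hardly be told apart in 6 samples, and the cause was not tested.

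With the replicate letter as a block, 9 genes were called higher (2.13% of all genes, 1.94% without the block), the additions being Fos, Fosb, Junb, Atf3, Egr2, Ier2 and Rhob. Samples of the same letter did not deviate together over all probes (correlation 0.04 for a, -0.16 for b and 0.11 for c), and the other fits did not pair them. A correlation over all probes cannot decide whether the letters pair samples for the listed genes alone. Of the listed genes measured, 78.4% were highest in wild-type a among wild-type samples, against 32.6% of all genes. In mTR-/-G4, 78.4% fell in the order a, b, c, against 8.83% of all genes. Whether the letters mark a pairing for these genes was not tested. The mean of a gene's probes, quantile normalization again and the trended and robust prior changed no call.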
